A study of Mus musculus with 4 samples.

Results

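Hox genes encode homeodomain transcription factors that give cells their position along the body axis. They sit in 4 clusters, and within a cluster the genes lie in the order of their paralogue numbers, which run from 1 at the head end to 13 at the tail end, so that a tissue carries a combination of active members set by where in the trunk it formed. Stromal cells and adipocytes of different depots keep such a combination after birth, and in the mammary region Hoxc8 takes part in placing the embryonic gland while Hoxa9, Hoxb9 and Hoxd9 act together in its later growth. The members were all genes with a single annotated symbol of the form Hoxa, Hoxb, Hoxc or Hoxd followed by a digit, each read by its brightest probe set. There were 34 of them among 17097 measured genes, on 42 probe sets, and 6 members had more than 1. Any other Hox gene was not analysed here.

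The tissue was intact inguinal mammary gland at postnatal day 10, that is, ducts with their fat pad. Mt2-mmp(-/-) mice, which lack the membrane-type matrix metalloproteinase encoded by Mmp15 throughout the body, were set beside littermates that were Mt2-mmp(+/+), all of them congenic for C57Bl/6J, with 2 Affymetrix arrays for each genotype. The labels call the 2 arrays of a genotype biological replicates and do not say whether an array holds 1 mouse or several, nor the sex of the mice, so p-values measure the spread between these arrays. Expression of the targeted gene was not analysed here. All values are RMA log2 values, in which probe signals were background-corrected and normalized across arrays by the authors, and the number of arrays, 4, limits the precision. Brightness depends on the probes of each set, so fold changes were taken between arrays for one gene. Genes were set beside each other by whether they passed a common background level, which depends on their probes too. Marker lists were summed within each array. In whole tissue, fewer cells of a type and less RNA per cell cannot be told apart.

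Above the array background on all 4 arrays were 10 of 11 luminal epithelial markers, 8 of 8 basal, 7 of 7 white adipocyte and 11 of 11 mesenchymal stroma markers. So were 8 of 8 endothelial and 8 of 8 macrophage markers, beside 70.2% of all genes. Of the arrays, 2 stood apart before any comparison of genotypes. Knockout 1 and wild type 2 carried a strong hair follicle signal: 19 of 20 measured hair follicle markers were higher in knockout 1 than in knockout 2 and in wild type 2 than in wild type 1, and 13 of them by at least 1 on the log2 scale both times. The log2 of the summed linear values of the list was 12.6 and 12.4 in knockout 1 and wild type 2, against 9.0 in both knockout 2 and wild type 1. Of the 20 markers, 10 were not above background in either knockout 2 or wild type 1. The summed level of the epidermal markers was divided the same way, at 11.38 and 11.40 against 10.12 and 10.19. Dsp, Perp, Sprr1a, Dsg1a, Ivl and Krt5 were divided so. Krt10 (7.16 to 7.22), Krt14 (7.87 to 8.22) and Krtdap (7.58 to 8.08) were not, and Krt1, Lor and Flg were not above background on any array. In the hair follicle signal each genotype thus held 1 array of each kind. Median values of skeletal muscle markers were 4.54 to 4.67 on the other arrays and 5.21 in knockout 2. Those of lymph node B and T cell markers were 5.05 and 5.19 in knockouts and 4.57 and 4.80 in wild type. Of these 9 markers, 5 had a higher mean in the knockout and 4 a lower one.

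The Hox genes above background in the gland lay between paralogues 2 and 10, with Hoxc13 besides. A gene was taken as above background when its value exceeded, on each array, the 95th percentile of the 23 nonspecific control probe sets, a level of 4.49 to 4.56. By that rule 23 of 34 Hox genes (67.6%) were above background on all 4 arrays and the other 11 on none of them, a share close to the 70.2% of all genes that passed. A gene that did not pass is not shown to be silent, since the dimmer probe sets of Hoxc5 and Hoxa3 also missed the level while the brightest ones of the same genes passed. The members nearest the level were Hoxb9, with values of 4.6 and 4.67 in knockouts and 4.63 and 4.63 in wild type just inside it, and Hoxd3, with 4.47 and 4.44 in knockouts and 4.46 and 4.42 in wild type just outside. No member passed on some arrays only, so the list of genes above background was the same in every knockout and wild-type array.

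**Figure D1:**
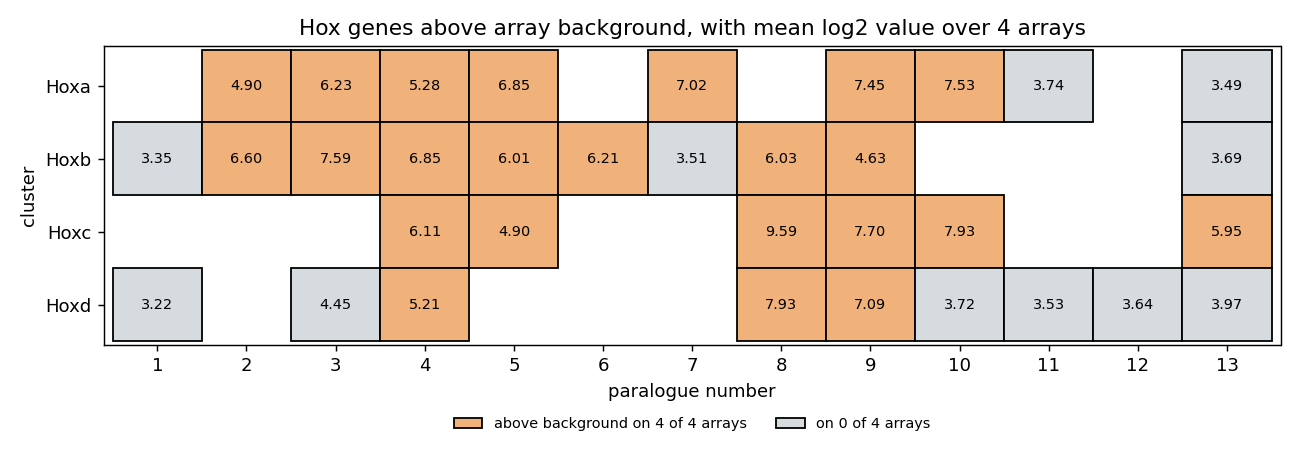
Each box is a Hox gene placed by cluster (rows) and paralogue number (columns), and the figure inside is its mean RMA log2 value over the 4 arrays, which is not comparable between boxes. Orange boxes were above background on 4 of 4 arrays, grey boxes on 0 of 4, and blank positions hold no gene analysed here. The 23 orange boxes lie between paralogues 2 and 10, apart from Hoxc13.

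At the head end, Hoxb1 and Hoxd1, which act in the hindbrain and in sensory neurons, were not above background on any array, with values of 3.27 to 3.43 and 3.17 to 3.24. Hoxa2 and Hoxb2, Hoxa3 and Hoxb3, which pattern the hindbrain and pharyngeal arches, all were above it, and Hoxd3 was not. All 4 measured members of paralogue group 4 (Hoxa4, Hoxb4, Hoxc4 and Hoxd4) and all 3 of group 5 (Hoxa5, Hoxb5 and Hoxc5) passed. Of the trunk paralogues 6 and 7, Hoxb6 and Hoxa7 passed, while Hoxb7 read 3.49 and 3.52 in knockouts and 3.45 and 3.58 in wild type and did not. Its neighbours in the cluster, Hoxb6 and Hoxb8, were both above background on the same arrays.

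Paralogues 8 to 10, which mark the lower trunk, were above background with a single exception among those measured. Hoxb8, Hoxc8 and Hoxd8 passed, as did Hoxa9, Hoxb9, Hoxc9 and Hoxd9, so that group 9 was above background in all 4 clusters. Hoxa10, known for its role in the uterus and lower spine, and Hoxc10, a gene of posterior fat depots, passed, and Hoxd10 did not. At the strictest level tried, the highest nonspecific control of each array (6.78 to 6.96), 8 of 34 members passed (Hoxa9, Hoxa10, Hoxb3, Hoxc8, Hoxc9, Hoxc10, Hoxd8 and Hoxd9), or 23.5%, beside 43.5% of all genes. Which members pass there depends on the brightness of their probes.

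Beyond paralogue 10, Hoxc13 was the only measured member above background. Hoxa11 and Hoxd11, which shape the forearm and kidney, Hoxd12, and the limb and tail genes Hoxa13, Hoxb13 and Hoxd13 lay, with Hoxd10, between 3.40 and 4.03 on every array, below the level of 4.49. In 2 clusters the step from above to not above background fell between neighbouring genes: between Hoxa10 and Hoxa11, and between Hoxd9 and Hoxd10. Hoxa10 read 7.67 and 7.40 in knockouts and 7.59 and 7.47 in wild type, and Hoxa11 3.79 and 3.73 against 3.75 and 3.69. Hoxd9 read 6.96 and 7.16 in knockouts and 7.12 and 7.10 in wild type, and Hoxd10 3.79 and 3.69 against 3.69 and 3.71. The 2 genes on each edge, each read by 1 probe set, lay on opposite sides of the background level on every array. No edge was read in the Hoxb cluster, where Hoxb13 follows Hoxb9, or in the Hoxc cluster, where Hoxc11 and Hoxc12 were not analysed here.

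The start regions of these 4 genes are shown because they are the neighbours between which that step fell. Each is the RefSeq window from 250 bases before to 50 after a start site in GRCm38.p6, 5′ to 3′ on the gene's strand, with CpG dinucleotides in capitals, since Polycomb and Trithorax complexes, which hold Hox genes off and on, act at CpG-rich DNA. The windows are chr6:52240805-52241104 on the minus strand for Hoxa10 (the upstream of its 2 listed starts), chr6:52245761-52246060 on the minus strand for Hoxa11, chr2:74697513-74697812 on the plus strand for Hoxd9 and chr2:74691641-74691940 on the plus strand for Hoxd10.
Hoxa10: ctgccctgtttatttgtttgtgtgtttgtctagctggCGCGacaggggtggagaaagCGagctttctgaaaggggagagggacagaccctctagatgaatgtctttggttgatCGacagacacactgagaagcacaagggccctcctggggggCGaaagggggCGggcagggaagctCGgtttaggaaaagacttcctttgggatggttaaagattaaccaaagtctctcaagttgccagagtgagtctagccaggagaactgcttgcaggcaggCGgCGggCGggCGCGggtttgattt
Hoxa11: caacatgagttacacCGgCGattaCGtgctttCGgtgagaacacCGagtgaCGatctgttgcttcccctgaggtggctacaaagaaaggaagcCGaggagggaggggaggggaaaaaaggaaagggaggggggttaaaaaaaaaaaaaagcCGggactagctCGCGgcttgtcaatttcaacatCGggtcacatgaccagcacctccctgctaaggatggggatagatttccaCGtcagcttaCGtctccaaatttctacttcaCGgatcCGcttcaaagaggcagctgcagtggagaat
Hoxd9: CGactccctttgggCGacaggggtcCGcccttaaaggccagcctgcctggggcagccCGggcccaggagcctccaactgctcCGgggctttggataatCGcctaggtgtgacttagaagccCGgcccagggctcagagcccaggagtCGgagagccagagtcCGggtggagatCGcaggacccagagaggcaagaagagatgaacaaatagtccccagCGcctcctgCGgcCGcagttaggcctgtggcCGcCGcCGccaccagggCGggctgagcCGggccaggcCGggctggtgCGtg
Hoxd10: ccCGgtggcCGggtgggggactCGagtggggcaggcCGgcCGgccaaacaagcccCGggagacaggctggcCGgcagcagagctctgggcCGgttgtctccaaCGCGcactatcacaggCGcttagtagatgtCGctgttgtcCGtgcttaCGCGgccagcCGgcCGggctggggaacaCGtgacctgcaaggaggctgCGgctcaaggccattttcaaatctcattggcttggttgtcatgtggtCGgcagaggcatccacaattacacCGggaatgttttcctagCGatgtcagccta
The window of Hoxa10 holds 12 CpG and that of Hoxa11 15, and those of Hoxd9 and Hoxd10 hold 20 and 22, while the window of the other Hoxa10 start, which is not shown, holds 21 CpG. Windows were matched for 21 of 34 members, 23 windows in all. They held 4 to 29 CpG (median 12) in the 12 matched genes above background and 4 to 45 (median 21) in the 9 matched genes that were not, beside a median of 16 over 17065 windows of measured genes. The motif TGATNNAT, a form of the site bound jointly by Hox and Pbx proteins, was searched on both strands and occurred in 4 of 23 Hox windows and in 5.67% of all windows. TATAAA occurred in 4 and CCAAT in 14 of the 23, and in 10.0% and 37.6% of all windows, again on either strand. None of the 3 motifs was found in the windows of Hoxa10, Hoxa11 and Hoxd9 shown here, and that of Hoxd10 held CCAAT on its reverse strand. The window of Hoxa10 that is not shown held TATAAA and CCAAT, both on the reverse strand.

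Hoxc13, a regulator of hair keratin genes in the hair shaft, was the 1 member beyond paralogue 10 that was above background. Its values were 6.78 (knockout 1), 5.31 (knockout 2), 5.10 (wild type 1) and 6.63 (wild type 2). The high values came from 1 array of each genotype, and they are the arrays that carried the hair follicle markers. Hoxc13 was 2.78-fold higher in knockout 1 than in knockout 2 and 2.89-fold higher in wild type 2 than in wild type 1.

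Among the 20 hair follicle markers the same division was wider than that of Hoxc13 for some and narrower for others. Krt25, Krt35 and Tchh, chosen after their values were seen, are among those with a wider division than Hoxc13. Krt25, a keratin of the inner root sheath, read 10.44 and 10.47 on the arrays with high Hoxc13 (knockout 1, wild type 2) against 3.70 and 3.99 on the other 2. Krt35, a keratin of the hair cortex, read 7.45 and 7.52 against 4.09 and 3.99. Tchh, trichohyalin, read 10.74 and 10.37 against 3.49 and 4.03. Krt81, a keratin of the hair cortex, differed less, by 0.97 between the knockouts and 0.90 between the wild types. The part of follicle content in the Hoxc13 values was not tested beyond this. The range of Hoxc13 over the 4 arrays was 1.69, whereas the other 22 members above background had ranges of 0.074 to 0.565 with a median of 0.267, and the median range of all genes above background was 0.203.

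**Figure D2:**
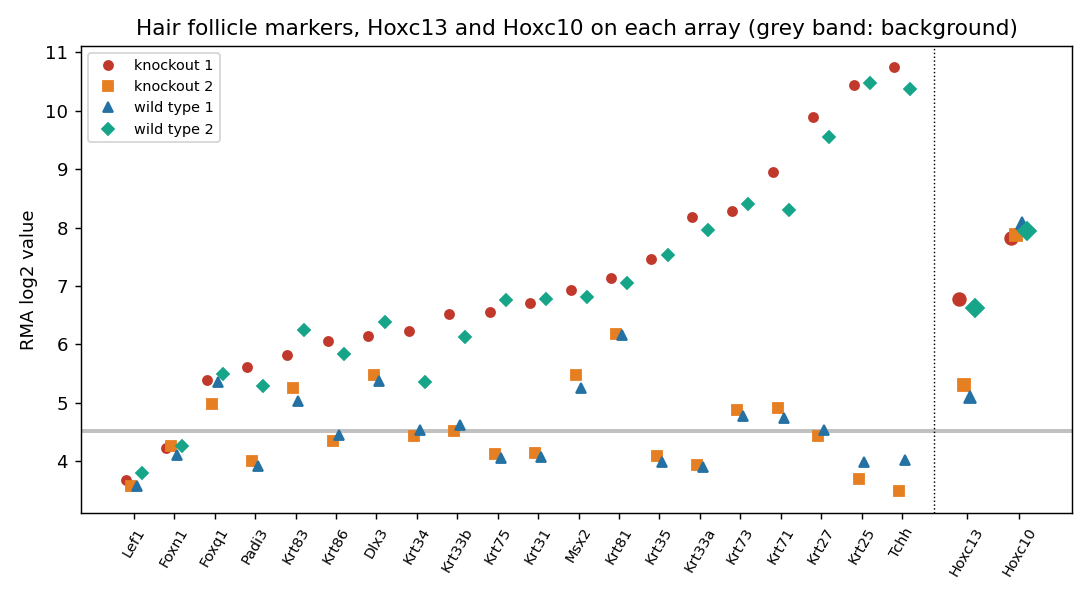
RMA log2 values of 20 hair follicle markers, Hoxc13 and Hoxc10 on each array, with the background level of 4.49 to 4.56 as a grey band. Knockout 1 and wild type 2 sit far above knockout 2 and wild type 1 for most markers and for Hoxc13, and the 4 arrays lie close together for Hoxc10.

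Between genotypes Hoxc13 did not pass the test. Its mean over 2 arrays was 6.04 ± 1.04 (SD) for the knockout and 5.86 ± 1.08 (SD) for the wild type. The log2 fold change was 0.18 with a 95% interval from -1.57 to 1.93 (limma adjusted p = 0.984). With a covariate for the hair follicle markers it was 0.15 (SE 0.079, limma adjusted p = 0.790), and between the 2 arrays low in those markers it was 0.21. Without knockout 1 the value was -0.56 and without wild type 1 it was -0.58, whereas leaving out knockout 2 gave 0.92 and leaving out wild type 2 gave 0.95.

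The comparison of genotypes asks whether loss of Mt2-mmp goes with a different Hox combination or level in the early gland. Knockout was compared with wild type by limma across all 17097 genes, two-sided, with Benjamini-Hochberg adjustment. A fold change below 0 on the log2 scale means a lower value in the knockout. None of the 34 Hox genes passed an adjusted p of 0.05 in either direction, where 1 gene in the whole table did (0.00585%). At an unadjusted p under 0.05 limma gave 4 Hox genes, Hoxa9, Hoxb8, Hoxc9 and Hoxd11, all on the lower side, which is 11.8% of the members beside 3.38% of all genes, and 0 on the higher side beside 3.63%. In either direction 7.01% of all genes had such a p. Of the members above background it was 3 of 23 on the lower side (13%) and 0 on the higher, beside 4.1% and 4.64% of all genes above background. Across all members 18 fold changes were below 0 and 16 above (median -0.011, and -0.002 over all genes). Among the 23 members above background 16 were below 0 and 7 above, with a median of -0.056, beside a median of 0 over the 12010 genes above background, of which 49.9% were below 0.

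Both knockout values lay under both wild-type values in 7 members above background: Hoxa2, Hoxa5, Hoxa9, Hoxb8, Hoxc8, Hoxc9 and Hoxc10. That is 30.4% of the 23, beside 20.2% of all genes above background. The opposite arrangement occurred for Hoxc5 alone (4.35%, beside 20.1%). Counting also the members that were not above background, 8 of 34 (23.5%) lay lower without overlap and 5 (14.7%) higher, beside 19.4% and 18.2% of all genes, or 37.6% in either direction. Among members above background other than Hoxc13, the 95% interval reached 0.172 to 0.405 on either side of the fold change. The median of that reach was 0.215 when Hoxc13 is included. These intervals are not adjusted for the number of genes tested, so the adjusted test also misses differences larger than they are wide.

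Hoxa9, a member of the group that acts redundantly in mammary growth and also a regulator of blood progenitors, read 7.36 and 7.28 in knockouts and 7.62 and 7.55 in wild type. The genotypes did not overlap, and its log2 fold change was -0.27 (SE 0.072, limma adjusted p = 0.693), which is 1.20-fold lower. Hoxc9, which marks posterior trunk and subcutaneous fat, read 7.64 and 7.53 in knockouts and 7.80 and 7.84 in wild type. Its log2 fold change was -0.23 (SE 0.072, limma adjusted p = 0.693), again without overlap. In the other members of group 9 the genotypes overlapped: Hoxd9 had -0.06, its knockouts at 6.96 and 7.16 on either side of the wild types, and Hoxb9, close to background, had 0.01.

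Hoxc8, which takes part in placing the mammary line and restrains thermogenic fat differentiation, read 9.38 and 9.54 in knockouts and 9.83 and 9.61 in wild type. Both knockouts were the lower, by 0.26 on average (SE 0.108, limma adjusted p = 0.729), and knockout 2 and wild type 2 were close together. Hoxb8, a thoracic gene that is also active in blood-derived cells, read 5.88 and 5.97 in knockouts and 6.15 and 6.12 in wild type, a log2 fold change of -0.21 (SE 0.069, limma adjusted p = 0.693). Its probe set carries the suffix Affymetrix gives to probes shared by several transcripts. Hoxd8 went the other way, with 7.92 and 8.05 in knockouts and 8.01 and 7.77 in wild type, a log2 fold change of 0.09 (SE 0.108) with overlapping genotypes, and its dimmer probe set had 0.15.

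Hoxc10, which represses genes of thermogenic fat, read 7.81 and 7.88 in knockouts and 8.08 and 7.93 in wild type. The knockouts were both lower, with a log2 fold change of -0.16 (SE 0.081, limma adjusted p = 0.747). Hoxa10 had 0.01 (SE 0.113), and its values interleaved. Within paralogues 8 to 10, 9 members were above background, 6 had a fold change below 0 and the median was -0.16.

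**Figure D3:**
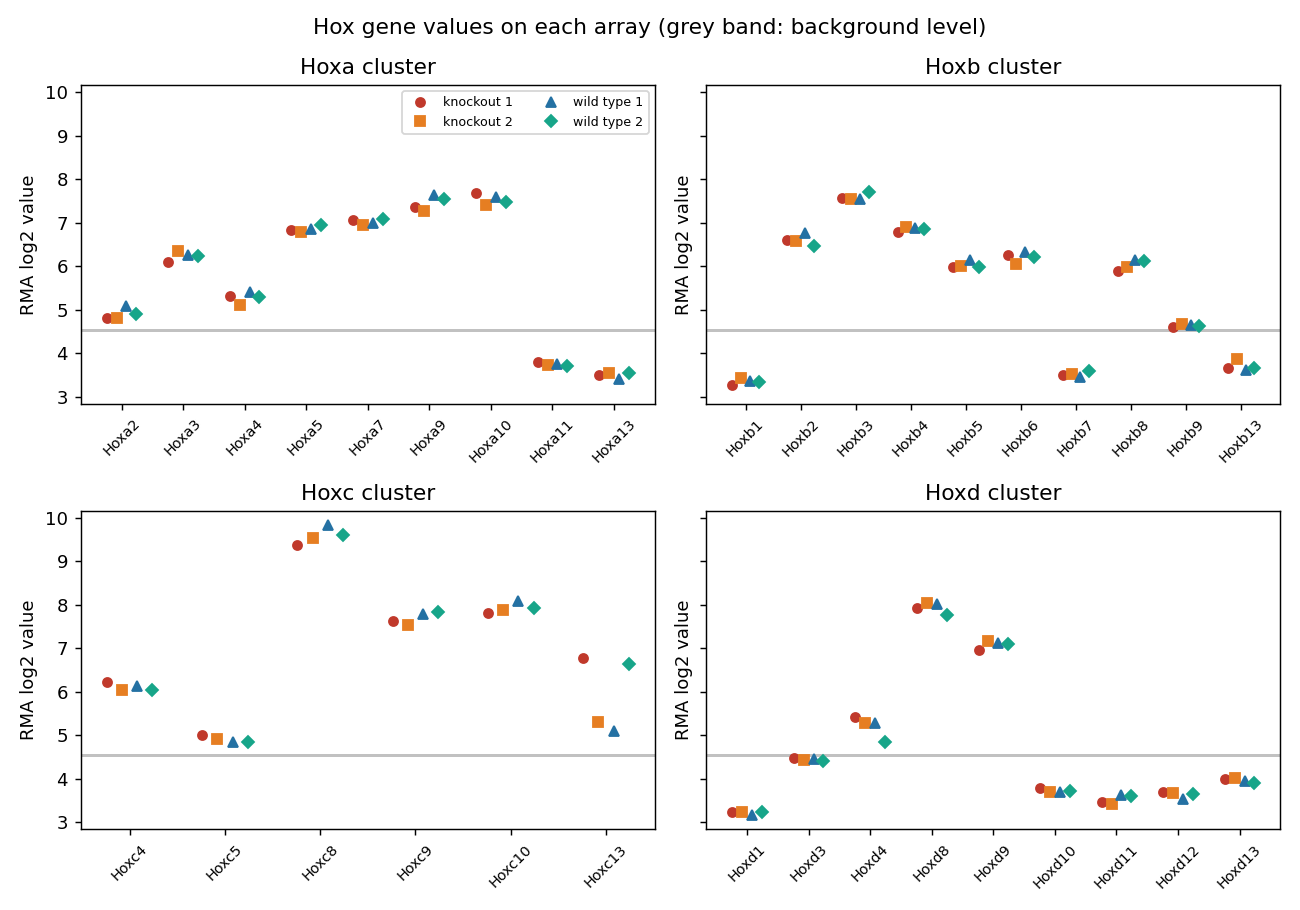
RMA log2 values of all 34 Hox genes on each array, by cluster, with the background level as a grey band. Knockout values of Hoxa9, Hoxb8, Hoxc8, Hoxc9 and Hoxc10 lie below those of wild type by 0.16 to 0.27 on average, and Hoxc13 divides the arrays 1 and 1 within each genotype.

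Of the front members, Hoxa2, which sets the identity of the second pharyngeal arch, read 4.82 and 4.80 in knockouts and 5.08 and 4.91 in wild type, near the background level, a log2 fold change of -0.19 (SE 0.084, limma adjusted p = 0.732). Hoxa5, a gene of lung and mammary epithelium, read 6.83 and 6.77 against 6.84 and 6.94, a difference of -0.09 (SE 0.072) without overlap. Hoxa4 had -0.13 (SE 0.10), with 5.32 and 5.11 in knockouts and 5.41 and 5.28 in wild type. Hoxb6, a thoracic gene, had -0.11 (SE 0.10), with 6.26 and 6.05 against 6.33 and 6.20. In both genes knockout 1 lay between the 2 wild types and knockout 2 below them.

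On the higher side stood Hoxd4 and Hoxc5, genes of the neck and upper trunk. Hoxd4 read 5.42 and 5.29 in knockouts and 5.29 and 4.85 in wild type, a log2 fold change of 0.28 (SE 0.157, limma adjusted p = 0.764). Wild type 2 was the low array and wild type 1 was level with knockout 2. Without wild type 1 the difference was 0.50 and without wild type 2 it was 0.06, and between the 2 arrays low in hair follicle markers it was -0.00030. Hoxc5 read 5.0 and 4.92 in knockouts and 4.86 and 4.84 in wild type, a log2 fold change of 0.11 (SE 0.067). Its dimmer probe set, at 3.91 to 4.13 and so not above background, had -0.18, so the mean of both gave -0.036. Hoxc4, at 6.22 and 6.05 in knockouts and 6.12 and 6.04 in wild type, had 0.05 (SE 0.086).

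The remaining members above background, Hoxa3, Hoxa7, Hoxb2, Hoxb3, Hoxb4 and Hoxb5, had log2 fold changes of -0.08 to -0.01 with overlapping genotypes. The largest of these in size was Hoxb3 at -0.08 (SE 0.078), which read 7.56 and 7.54 in knockouts and 7.55 and 7.70 in wild type. Its dimmer probe set had -0.19 (6.26 and 6.21 in knockouts and 6.52 and 6.32 in wild type). The 4 probe sets of Hoxa3 ran from -0.05 to 0.05, and the dimmer one of Hoxb4 had -0.06. Among the 11 members not above background the fold changes ran from -0.17 for Hoxd11 to 0.13 for Hoxb13. Hoxd11 read 3.47 and 3.42 in knockouts and 3.64 and 3.6 in wild type (-0.17, SE 0.066, limma adjusted p = 0.712), all of them below the background level.

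**Figure D4:**
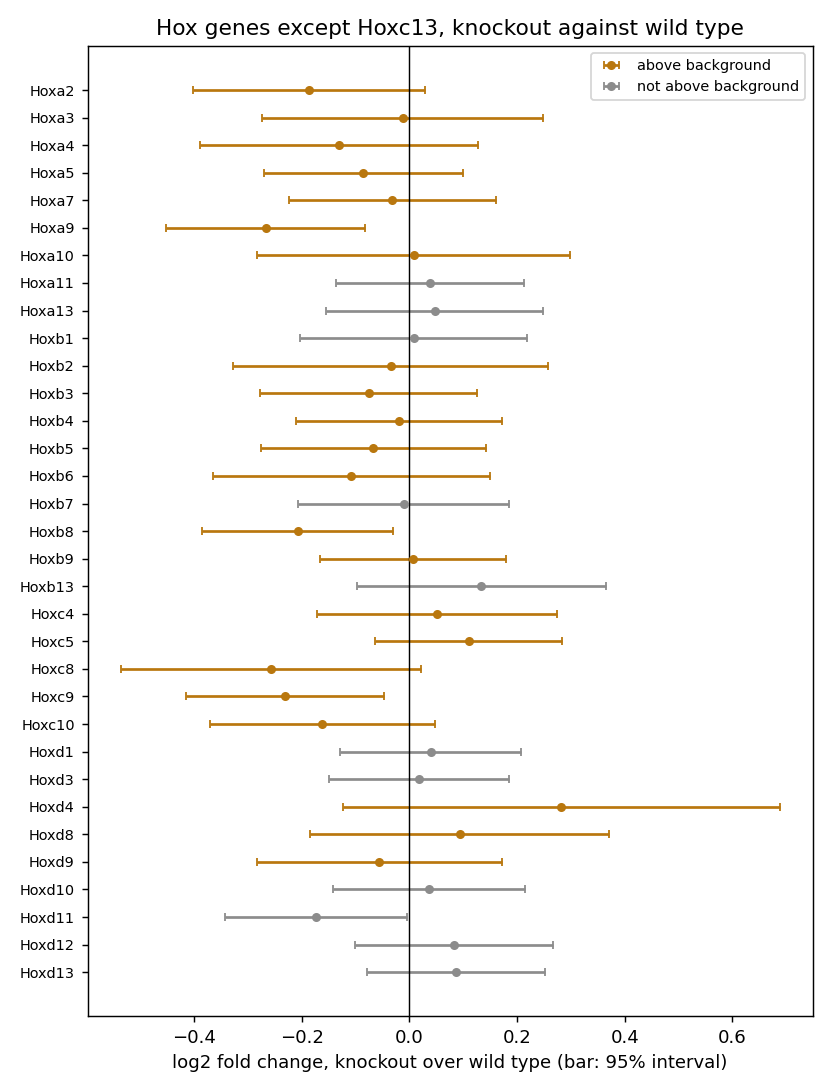
Log2 fold change of 33 Hox genes, knockout over wild type, with 95% intervals from limma (n = 2 arrays each), in orange for members above background and grey for the others. Intervals of Hoxa9, Hoxb8, Hoxc9 and Hoxd11 lie below 0 without adjustment for the number of genes tested, and Hoxc13, whose interval runs from -1.57 to 1.93, is left out.

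Between knockout 2 and wild type 1, the arrays low in hair follicle markers, the 7 members that lay lower without overlap differed by -0.28 (Hoxa2), -0.07 (Hoxa5), -0.35 (Hoxa9), -0.18 (Hoxb8), -0.29 (Hoxc8), -0.26 (Hoxc9) and -0.21 (Hoxc10), with no test. A difference below 0 was fixed in advance for these 7 in this pair, since both of their knockout values lay under both wild-type values. In the same pair the other members of paralogues 8 to 10 above background had -0.19 (Hoxa10), 0.04 (Hoxb9), 0.04 (Hoxd8) and 0.03 (Hoxd9). Of the 4 arrays this pair had the lowest and the highest median deviation of the Hox genes above background from their means, -0.049 and 0.076, so it is no independent check of the part of hair follicle content, which was not tested. With the hair follicle covariate Hoxc8 had -0.25 (SE 0.075, limma adjusted p = 0.738). It joined Hoxa9, Hoxb8 and Hoxc9 at an unadjusted p under 0.05 by limma, while Hoxd11 left. That made 4 of 34 members, all on the lower side, beside 6.55% of all genes in either direction and 3.05% on the lower side. The covariate, added after the data were seen, takes a degree of freedom from a fit with only 2 residual ones. The count of members with such a p moved with single arrays. It was 1 (Hoxb8) without knockout 2, beside 6.62% of all genes, and 1 (Hoxd4, on the higher side) without wild type 1, beside 8.83%, with 0 members on the lower side there, and was 2 (Hoxa9 and Hoxc9) without knockout 1 and 3 (Hoxa2, Hoxa9 and Hoxc8) without wild type 2, beside 4.90% of all genes each time. With the replicate number as a block it was 2 of 34 (Hoxa9 and Hoxc9, both on the lower side). Of all genes 6.93% had such a p in that fit, 3.66% on the lower side.

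Values of several cell type marker lists also lay mostly to one side of 0 in the same comparison. Brown and beige adipocyte markers were above 0 in 10 of 10 (median 0.58), with log2 summed levels of 13.91 and 13.52 in knockouts and 13.06 and 13 in wild type. Luminal epithelial markers were below 0 in 10 of 11 (median -0.24), with 11.80 and 11.68 against 12.04 and 11.96, and basal markers in 8 of 8 (median -0.25), with 12.21 and 12.24 against 12.34 and 12.29. Mesenchymal stroma markers were below 0 in 2 of 11 (median 0.08), with 14.96 and 14.99 against 14.94 and 14.84, and white adipocyte markers in 3 of 7 (median 0.02). Macrophage markers were below 0 in 8 of 8 (median -0.10), with 12.15 and 12.22 against 12.37 and 12.28. Endothelial markers were below 0 in 1 of 8 (median 0.17), with 12.27 and 12.47 against 12.28 and 12.20, so knockout 1 lay between the wild types. Skeletal muscle had 11 of 11 above 0 (median 0.15), with 6 of 11 above background. Its summed levels were 8.03 and 9.12 in knockouts and 8.26 and 8.07 in wild type, so knockout 1 lay below both wild types. Above 0 were 5 of 9 lymph node cell markers (median 0.0062), 2 of 4 of nerve and Schwann cells (0.0024), 6 of 12 of epidermis (-0.01) and 13 of 20 of hair follicle (0.03). At an adjusted p of 0.05 by limma 0 of these markers passed, while at an unadjusted p under 0.05 there were, on the lower side, 4 of 11 luminal, 3 of 8 basal, 3 of 8 macrophage and 1 of 12 epidermal markers, beside 3.38% of all genes. The epidermal one was Krt14, which is in the basal list too and is also counted there. On the higher side there were 6 of 10 brown and beige, 3 of 7 white adipocyte, 2 of 9 lymph node and 1 each of the stroma, endothelial, nerve and epidermal markers, beside 3.63% of all genes, and the part of cell content in the Hox values was not tested.

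Transcripts of proteins that bind DNA together with Hox factors were measured on the same arrays, and none of them passed the test. Of 10 measured TALE homeodomain cofactors, 9 were above background (Pbx4 was not), 5 had a fold change on each side of 0 and 0 passed, adjusted or not. Meis1 and Meis2, which bind with the posterior Hox proteins, had 0.02 and 0.05. Tgif1, a TALE repressor, was lowest with -0.15 (SE 0.070), and Meis3 highest with 0.13 (SE 0.088).

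Polycomb proteins keep unused Hox genes silent, and Trithorax proteins keep used ones on. All 19 measured Polycomb genes were above background, and 14 had a fold change below 0 (median -0.035). By limma 3 had an unadjusted p under 0.05, all on the lower side, with 0 past the adjusted threshold. On that side it was 3.38% of all genes and 4.1% of all genes above background. Bmi1, a core subunit of the first Polycomb complex, read 8.83 and 8.80 in knockouts and 9.0 and 9.09 in wild type (-0.23, SE 0.069, limma adjusted p = 0.693). Suz12, a subunit of the second complex, which methylates histone H3, read 8.90 and 8.88 against 9.06 and 9.06 (-0.17, SE 0.063), and its catalytic partner Ezh2 had -0.16 (SE 0.077). Cbx2, a reader of that mark, read 6.27 and 5.88 in knockouts and 6.46 and 6.48 in wild type (-0.40, SE 0.139, limma adjusted p = 0.709). Without knockout 2 the value of Cbx2 was -0.20, and with the mean of its probe sets -0.22. The mean of probe sets gave -0.19 for Bmi1 and -0.12 for Suz12. Over the list, 6 of 19 lay lower in the knockout without overlap and 2 (Pcgf2 and Phc2) higher, beside 20.2% and 20.1% of all genes above background. The 13 measured Trithorax and MLL complex genes, all above background, had 4 fold changes below 0 and 9 above (median 0.019), and 0 had an unadjusted p under 0.05. Dot1l, a histone H3 methyltransferase, had 0.12 and the insulator factor Ctcf, which divides Hox clusters into domains, -0.10.

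Signals that set Hox clusters along the axis were present in part. Of 16 measured genes of the retinoic acid, Cdx and Gdf11 group, 10 were above background. Cdx1, Cdx2 and Cdx4, the tail-end activators of Hox clusters, were not above background on any array (3.22 to 4.26). In this group 10 had a fold change below 0, 6 above, and 0 passed, adjusted or not. Rxra, a partner of the retinoic acid receptors, had -0.18 (SE 0.077), but -0.064 with the mean of its probe sets and -0.10 without knockout 1. Aldh1a1, which makes retinoic acid, had 0.30 (SE 0.175), with 0.54 without wild type 1 and 0.061 without wild type 2.

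Of 21 other positional factors measured, 10 were above background. Pitx1, a hindlimb factor, read 4.18 to 4.25 and was not above background on any array, while Tbx15, a trunk and subcutaneous fat factor, read 7.24 to 7.36. Tbx3, which is needed for the mammary bud, had -0.14 (SE 0.066), with 7.95 and 7.89 in knockouts and 8.07 and 8.05 in wild type. Tbx5, a forelimb and heart factor, read 5.98 and 5.80 in knockouts and 5.64 and 5.57 in wild type (0.29, SE 0.088, limma adjusted p = 0.693), with 0.17 for the mean of its probe sets. Tbx2 read 6.07 and 6.31 against 5.97 and 5.70 (0.36, SE 0.131, limma adjusted p = 0.712), with 0.24 without knockout 2 and 0.23 without wild type 2. Only these 2 had an unadjusted p under 0.05 among the 21, beside 3.63% of all genes on the higher side.

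The genes that flank the Hox clusters, or lie within them without coding for Hox proteins, included 15 measured members, of which 9 were above background, 4 had a fold change below 0 and 0 passed over all genes. Hoxb5os, a noncoding transcript beside Hoxb5, read 6.57 and 6.41 in knockouts and 6.31 and 6.28 in wild type (0.19, SE 0.081, limma adjusted p = 0.729), where Hoxb5 itself had -0.07 (SE 0.081). Snx11 and Atp5g1, named for an unadjusted p under 0.05 by limma, flank the Hoxb cluster on opposite sides and went opposite ways. Snx11, a sorting nexin beyond Hoxb1, read 6.60 and 6.58 in knockouts and 6.29 and 6.29 in wild type (0.30, SE 0.063, limma adjusted p = 0.693). Atp5g1, a subunit of ATP synthase beyond Hoxb13, read 10.08 and 10.16 against 10.42 and 10.47 (-0.32, SE 0.070, limma adjusted p = 0.693), and -0.14 with the mean of its probe sets. Other listed genes on the flanks of that cluster had -0.07 (Skap1), 0.01 (Ttll6) and 0.06 (Calcoco2), with overlap in Skap1 and Ttll6. None of these was above background on all 4 arrays. Hoxa11os and Hoxd3os1 were not above background on any array.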

How the data were processed

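Expression was measured on 4 arrays, 2 per genotype, from 200 ng of total RNA each, per the labels' protocols. The deposited values are on a log2 scale, 1 per probe set, and the submitters' processing notes name RMA and affy as what the authors used. The version, the settings and the genome build were not given in the sources used here. Because RMA equalizes arrays, it cannot show a shift of most genes at once, and it compresses fold changes of dim genes. Array medians lay between 5.19 and 5.21.

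Of 45141 probe sets, 104 were controls, 28898 had 1 gene symbol in the platform annotation, 551 had several and 15588 were unlisted. Symbols were checked by gene ID against RefSeq GRCm38.p6 (99.3% matched, 0 changed), which served otherwise only for gene order and the promoter windows. The probe set with the highest mean stood for a gene. Genotypes were compared without covariates by limma 3.58.1 (lmFit, eBayes; R 4.3.3), with 2 residual and 2.96 prior degrees of freedom, at an adjusted p of 0.05. The steps were tested on simulated data, where every run carried planted changes in 200 genes. There 8.2% of log2 changes of 0.5 and 84.5% of changes of 1 passed the adjusted threshold. These shares apply to that many planted changes and do not give the sensitivity of the genotype comparison, where 1 gene passed. In that comparison Lep (log2 fold change 2.19), Ucp1 (1.64) and Dio2 (1.03) did not pass. Their limma adjusted p was 0.693, 0.651 and 0.651.

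The members, the 6 pathway lists and the 12 marker lists were chosen with earlier results of these data known. Array values are given for members at an unadjusted p under 0.05, for those above background that had the 12 smallest p or belong to Hoxc or to paralogues 9 to 13, and for list genes with an unadjusted p under 0.05 or up to 3 of smallest p per list. Meis1, Meis2, Ezh2, Tbx3, Tbx15, Pitx1, the Cdx genes and the hair keratins shown were chosen after their values were seen. Alternatives were quantile normalization, median centring, brighter genes only, the mean of probe sets, each probe set separately, an intensity trend, robust variances, leaving out arrays in turn, a block for the replicate number, and other background levels. A crossed block, the hair follicle covariate and the pair of arrays low in hair follicle markers were added after the data were seen.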

Additional observations from a re-analysis of the deposited data

How the results depend on the processing

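In the alternatives fitted to all 4 arrays, 2 to 5 members had an unadjusted p under 0.05 by limma, beside 6.22% to 9.12% of all genes. The 5 were out of 42 Hox probe sets, with each probe set tested separately, beside 6.82% of all. With brighter genes only it was 2 of 12 members, beside 9.12%. The count of Hox genes past the adjusted threshold was 0 in each of these alternatives. The count of all genes past it was 0 with the mean of probe sets, the replicate block, the crossed replicate block and the hair follicle covariate, 2 with robust variances and with each probe set tested separately, and 0 to 1 with 1 array left out. The replicate numbers share only a number: same-numbered arrays deviated in opposite directions (r = -0.480 across genes). With the replicate block the count of all genes past the threshold was 0. There 2 Hox genes had an unadjusted p under 0.05 by limma, beside 6.93% of all genes. The crossed pairing of knockout 1 with wild type 2 gave 0 and 4, beside 6.22% of all genes.

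The median Hox fold change of -0.011 was -0.066 with the brighter genes only, which kept 12 members, -0.021 with the mean of probe sets, and -0.027 to -0.0039 with 1 array left out. Over members above background it was -0.056, and -0.085 to -0.046 with 1 array left out.

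The count of Hox genes above background was 23 of 34, and 8 at the highest nonspecific control, beside 70.2% and 43.5% of all genes. It was 17 at the median of all probe sets, where Hoxa2, Hoxa4, Hoxb9, Hoxc5, Hoxc13 and Hoxd4 were lost, beside 61.2% of all genes. At the 95th percentile of odorant receptor genes it was 22 (Hoxb9 lost), beside 67.8%. The mean of probe sets also gave 22 (Hoxc5 lost), beside 67.3%.

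Of 34 members 15 kept the sign of their fold change in every alternative, among them Hoxa2, Hoxa5, Hoxa9, Hoxb8, Hoxc8, Hoxc9 and Hoxc10. Those named lay lower in knockouts without overlap, so leaving out 1 array or taking the pair low in hair follicle markers could not turn their sign. None of the fold changes that turned had passed the test. Between the 2 arrays low in hair follicle markers the sign turned for Hoxa10 (-0.19), Hoxa11 (-0.022), Hoxa3 (0.10), Hoxb4 (0.027), Hoxb7 (0.073), Hoxc4 (-0.074), Hoxd3 (-0.019), Hoxd4 (-0.00030) and Hoxd9 (0.033). It turned for Hoxa3 (0.0081) and Hoxc5 (-0.036) with the mean of probe sets and for Hoxa10 (-0.0039) with quantile normalization. With 1 array left out the values ran from -0.13 to 0.14 for Hoxa10, -0.14 to 0.11 for Hoxa3, -0.081 to 0.042 for Hoxb4, -0.077 to 0.056 for Hoxb7, -0.58 to 0.95 for Hoxc13, -0.033 to 0.14 for Hoxc4, -0.0091 to 0.082 for Hoxd10, -0.15 to 0.043 for Hoxd9, -0.084 to 0.021 for Hoxa7, -0.075 to 0.091 for Hoxb1, -0.030 to 0.044 for Hoxb9, -0.021 to 0.12 for Hoxa13, -0.18 to 0.11 for Hoxb2, -0.15 to 0.014 for Hoxb5, -0.0046 to 0.040 for Hoxd3 and -0.029 to 0.22 for Hoxd8. The cause was not tested.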
